A study of Homo sapiens with 2 samples.

Results

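The urokinase and plasminogen activator system was examined as a group of 6 transcripts in a map of the RNA contacts of RBMS3. RBMS3 is an RNA-binding protein with a preference for sequences rich in A and U. The genes were taken by name and comprised the proteases PLAU and PLAT, the receptor PLAUR, the secreted inhibitor SERPINE2 and the intracellular serpins SERPINB6 and SERPINB8. Their members are the rows of the deposited site list that lie inside each gene on its own strand, in the hg38 genome and GENCODE release 44. They numbered 41 of the 27706 sites in the list. SERPINB6 had none, so 5 of the 6 genes were represented. Of all 20046 protein-coding genes, 31.8% had a site in the 3′UTR. The 6 genes were chosen with earlier results of these data known, so the 5 of 6 is not a result about the system.

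Each site is a position at which pooled sequencing tags, the unique sequenced RNA fragments, lacked 1 base after ultraviolet crosslinking and recovery of the protein. The study carried out CLIP-seq on MDA-MB-231, an established triple-negative breast cancer line. Its cells were stably transduced with a lentiviral vector, named for the EF1a promoter, that carries RBMS3 fused to an N-terminal FLAG tag, so the contacts are those of added, tagged protein. The only group held 2 biological replicates, and for replicate 2 the source label names MDA-MB-232 whereas the title names MDA-MB-231. Sites were called by the authors on both replicates together, and no control library was analysed here. None of the values below therefore has an error between replicates, and the 95% Wilson intervals cover counting error only.

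The plasminogen activator system generates plasmin at the cell surface. Urokinase (uPA, from PLAU) binds its receptor uPAR (from PLAUR), which is anchored in the membrane by a lipid, and cleaves plasminogen to plasmin, a protease that degrades fibrin and matrix proteins. Tissue plasminogen activator (tPA, from PLAT) does the same on fibrin. Serpins are inhibitors that trap their target protease in a covalent complex. SERPINE2, or protease nexin-1, acts outside the cell on thrombin and on both activators, whereas SERPINB6 and SERPINB8 are clade B serpins that act mainly inside cells. The system is known for its role in invasion, and its mRNAs include several that are controlled through elements of their 3′UTRs.

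The stretches that carried the most deletions in PLAU, PLAUR, SERPINE2 and SERPINB8 are shown first, because the position of the deletion relative to the poly(A) signal is what the rest of the description turns on. Each run is 29 nt of the hg38 transcript strand, 5′ to 3′, with the deletion placed at base 15. Capitals mark base 15 and any poly(A) signal, which is AATAAA or else ATTAAA or else one of 8 variants that differ from AATAAA in a single base. These are TATAAA or CATAAA or GATAAA in the first base, AGTAAA or ACTAAA in the second, and AATATA or AATACA or AATAGA in the fifth. Where identical bases follow each other the lost one is unknown, and the deletion is then listed at their lowest coordinate, which is the first of them in a gene on the plus strand and the last in one on the minus strand. The first PLAU window runs past the annotated end of the gene.
PLAU site with the most deletions, chr10:73917472-73917500, plus strand: tcAATAAAatgtgaTttttctgatgacaa
PLAU site 85 nt from the end, chr10:73917395-73917423, plus strand: tgaggaccactcctGtacactgaatattt
PLAUR site with the most deletions, chr19:43648576-43648604, minus strand: ttaCATAAAgatttTgtaccagtggacaa
PLAUR site in another last exon, chr19:43646267-43646295, minus strand: attattacaaacttTATAAActaacacat
SERPINE2 site with the most deletions, chr2:223975187-223975215, minus strand: tggatttgcattttTgtattttgtacaaa
SERPINE2 site nearest to the end, chr2:223975157-223975185, minus strand: taaaAATAAActgtTatgagtAGTAAAaa
SERPINB8 site with the most deletions, chr18:63989337-63989365, plus strand: tattgaaAATAAAgTttttatgaatattt
In PLAU and SERPINB8 the strongest deletion followed AATAAA and opened a run of T. In PLAUR it also followed a signal and lay in a run of T, but the signal was the variant CATAAA. In SERPINE2 it lay in a run of T upstream of the signal, and the signal appears in the stretch of the site nearest to the end.

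Of the 41 sites, 40 lay in annotated 3′UTRs, and 38 did with 1 representative transcript per gene. Of all sites in the list, 76.6% lay in 3′UTRs. The list also holds sites outside genes, which the members exclude by their definition, so the 2 shares have unlike bases. The remaining site was in SERPINE2, in an exon of a transcript with a retained intron. The 3′UTR sites of the members had a median of 106.5 deletions (quartiles 62.75 and 232) among a median of 19114 covering tags. Over all 21222 3′UTR sites of the list the medians were 64 deletions and 4927 tags. The median share of tags with the deletion was 0.744% in the members (quartiles 0.358 and 1.74%) and 1.96% over all 3′UTR sites. By site, the members thus had more tags and a lower deletion percentage at the median than the list. Neighbouring sites are not separate, and the 40 sites form 9 clusters of sites within 50 nt. With only the site with the most deletions kept from each cluster, the median percentage was 3.99% in the members. Over the 9975 3′UTR clusters of the list it was 4.59%, so most of the gap in percentage was seen only by site. The gap in tags remained by cluster, with medians of 4756 tags in the members and 1788 in the list. The abundance of these transcripts was not measured here, and the part of coverage in these percentages was not tested.

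**Figure D1:**
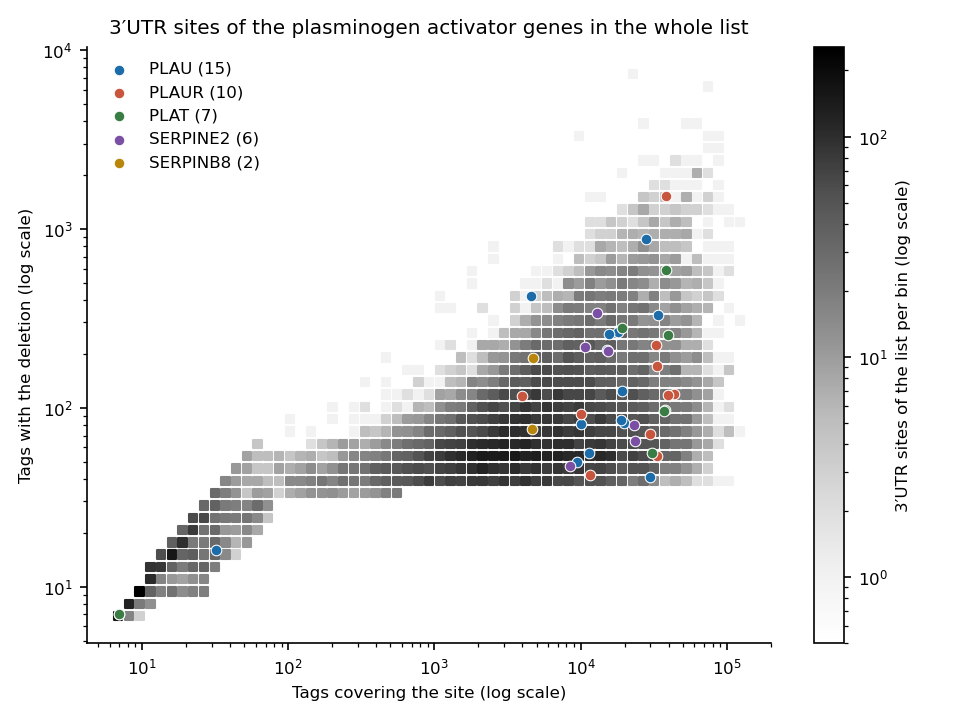
Tags that cover a 3′UTR site (horizontal, log scale) against tags with the deletion (vertical, log scale), for the 3′UTR sites of 5 genes (coloured points, number of sites in the key) over all 21222 3′UTR sites of the list (grey bins, darker for more sites). Most coloured points lie to the right, at or above 3998 tags, and PLAUR holds the highest of them at 1529 deletions, whereas 3 points at 32 tags or fewer lie at the lower left.

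Most of the single sites were near transcript ends. Within 100 nt of an annotated end of the same gene lay 36 of the 40 3′UTR sites, against 69.2% of all 3′UTR sites. With 1 site per cluster, 5 of the 9 clusters were near an end, against 59% of the 9975 clusters of the list, a share close to that of the list. Each of the 5 genes contributed 1 such group: 13 sites in PLAU, 9 in PLAUR, 6 each in PLAT and SERPINE2, and 2 in SERPINB8. All 36 had deletions in under 30% of their tags, as had 14070 of the 14687 3′UTR sites of the list within 100 nt of an end. Of the 37 member 3′UTR sites under 30%, 36 lay within 100 nt of an end, against 76.1% of such sites in the whole list. By cluster these were 5 of 6, against 72.4%. Nearness to ends was thus common to the list as a whole. The library protocol used oligo(dT), which also binds the natural tail of an mRNA, and the part of that step in where the sites fell was not tested.

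**Figure D2:**
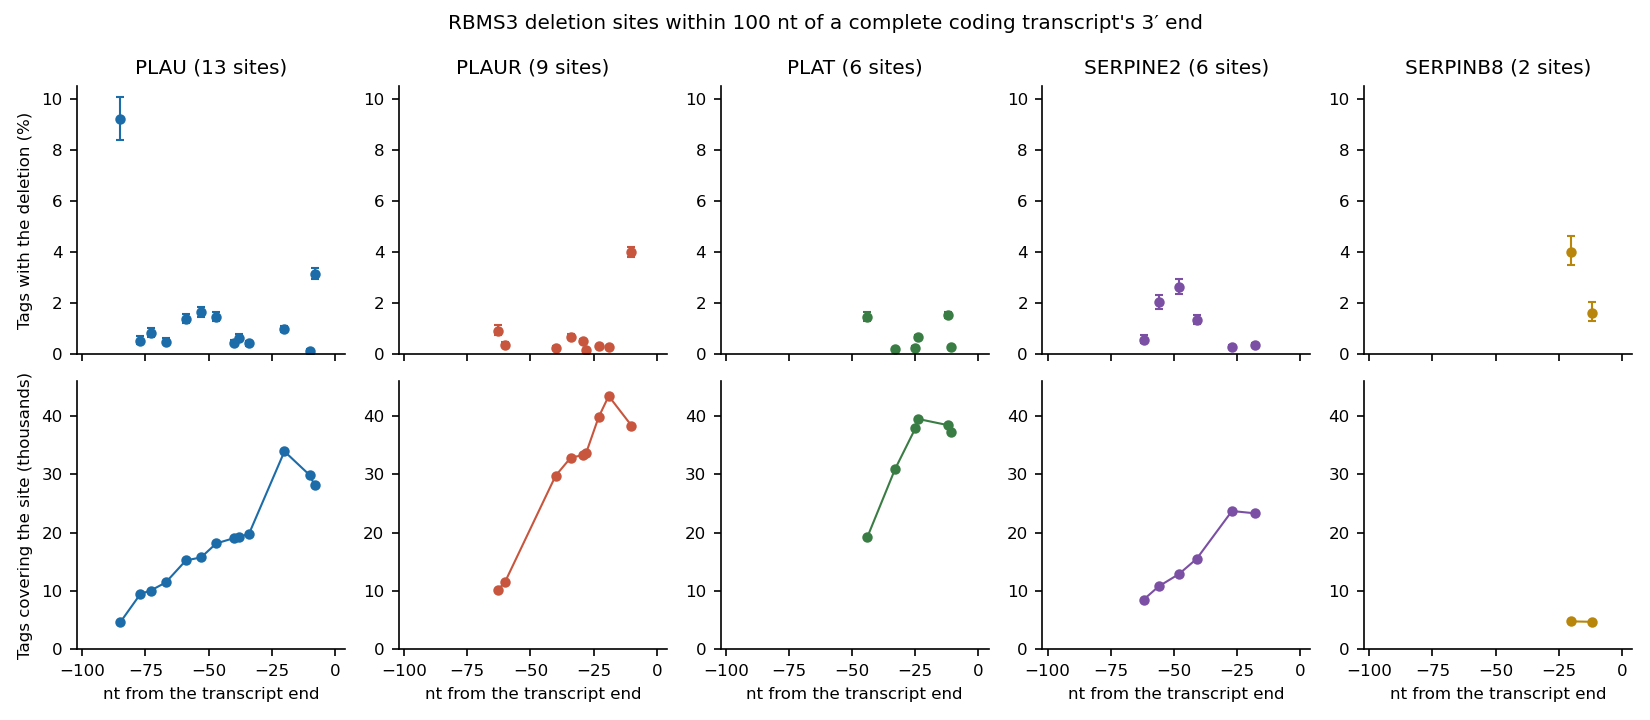
Deletion percentage with its 95% Wilson interval (top) and covering tags (bottom, in units of 1000) for the 36 sites within 100 nt of the end of a complete coding transcript, by gene, against the distance from that end in nt (0 is the end, negative values lie upstream). Tags rise towards the end in PLAU, PLAUR, PLAT and SERPINE2 up to a site 19 to 27 nt from it and are lower at the site nearest to it. The deletion percentages stay low except at a few single positions.

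PLAU, the gene of urokinase (ENSG00000122861.16, chromosome 10, 73909177 to 73917496, plus strand), carried 15 sites, the most of the 6 genes. Only 127 of the 6371 genes with a 3′UTR site (1.99%) had as many. By the most tags at a 3′UTR site, 3.44% of these genes reached the 33929 of PLAU. Its 3′UTR measures 929 nt in the canonical transcript and has 2 copies of AATAAA near the end, which start 20 and 33 nt before it. The site with the most deletions was 8 nt from the end, where 883 of 28074 tags lacked a T (3.15%, interval 2.95 to 3.36%). The site with the highest percentage in the same group was 85 nt from the end, where 422 of 4591 tags lacked a G (9.19%, interval 8.39 to 10.1%). These were the outermost sites of the group on either side, and their intervals overlapped neither each other nor any other site of the group.

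Between them, 11 sites of PLAU had lower percentages, from 0.137% (41 of 29851 tags, 10 nt from the end) to 1.65% (259 of 15734 tags, 53 nt from the end). The sites at 47 nt (265 of 18129 tags, 1.46%) and 59 nt (211 of 15216 tags, 1.39%) followed it in the order of percentage, and each interval overlapped with the next. All 3 deletions were placed in runs of T. A deletion listed at the first A of the AATAAA nearest to the end, 20 nt from it, was found in 332 of 33929 tags (0.979%). The other 6 sites ranged from 50 to 124 deletions and from 0.414 to 0.807%, and neighbours in the order of percentage overlapped in each case. Covering tags rose from 4591 at 85 nt to 33929 at 20 nt and were 28074 at 8 nt.

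The 2 remaining sites of PLAU rested on few fragments. The site at position 73917144 lay 350 nt upstream of the end, and 16 of its 32 tags lacked a C (50%, interval 33.6 to 66.4%). The site at position 73916625 lay 869 nt upstream, and each of its 7 tags lacked an A, which is the lowest number of deletions in the list. Neither window held AATAAA or the AUA motif.

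PLAT, the gene of tPA (ENSG00000104368.19, chromosome 8, 42174718 to 42207709, minus strand), had 7 sites. No sequence is shown for it. The 6 sites near an end lay 11 to 44 nt upstream of the end of PLAT-202, a coding transcript that stops upstream of the canonical end. The strongest was at position 42175249, 12 nt from that end, with 589 of 38423 tags and a deleted T (1.53%, interval 1.41 to 1.66%). The site at 44 nt, with 278 of 19185 tags (1.45%, interval 1.29 to 1.63%), could not be told apart from it by percentage.

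At the other 4 sites of the group the percentages were lower. At 24 nt, 256 of 39505 tags lacked a C (0.648%, interval 0.574 to 0.732%). The sites at 11, 25 and 33 nt had 96, 97 and 56 deletions, and their percentages of 0.257, 0.256 and 0.181% had overlapping intervals. The window of each of the 6 sites held the same AATAAA, preceded by T, which is a match to the AUA motif.

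The canonical PLAT transcript continues past these sites, which lie 530 to 563 nt upstream of its end. Its last 50 nt hold neither AATAAA nor ATTAAA, and no site was within 100 nt of that end. The shorter end of PLAT was thus the one with sites. The last PLAT site, at position 42182726, was covered by 7 tags that all lacked a T. It is 3′UTR only in a transcript subject to nonsense-mediated decay and lies in a coding exon of the canonical transcript.

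PLAUR, the gene of uPAR (ENSG00000011422.12, chromosome 19, 43646095 to 43670547, minus strand), held the site with the most deletions of the group. It was at position 43648590, 10 nt upstream of the nearest end and 11 nt upstream of the canonical one, and 1529 of 38365 tags lacked a T (3.99%, interval 3.79 to 4.19%). Only 41 of 6371 genes (0.644%), PLAUR among them, had a 3′UTR site with as many deletions. By the most tags at a 3′UTR site, 1.99% of these genes reached the 43430 of PLAUR. The site with the most deletions made up 60.3% of the 2537 deletions summed over the 10 sites of the gene. In this sum a tag with several deletions counts more than once. The next site in that group by deletions, 34 nt from the end, had 224 of 32868 tags (0.682%, interval 0.598 to 0.776%).

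The other 7 sites of that group ranged from 42 to 172 deletions. The highest percentage among them was 0.914% (92 of 10068 tags, 63 nt from the end) and the lowest 0.161% (54 of 33566 tags, 28 nt from the end). Ordered by percentage, the 8 sites below the strongest one overlapped with the next in every case. PLAUR thus had a single position that stood above the others of its group. Covering tags rose from 10068 at 63 nt to 43430 at 19 nt and were 38365 at 10 nt.

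Neither AATAAA nor ATTAAA occurred in the last 50 nt of the canonical PLAUR transcript. The variant CATAAA was in the windows of 7 of the 9 sites of this group and started 11 nt upstream of the strongest deletion. In the whole list, 12.5% of 3′UTR sites had a variant signal with neither of the 2 main ones in the window, compared with 8 of the 40 member sites, all of them in PLAUR. This count was made after the values had been seen.

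The tenth PLAUR site was in the last exon of PLAUR-202, a transcript that splices past the canonical end to a more distal exon. It was at position 43646281, 186 nt upstream of where that transcript stops, and 116 of 3998 tags lacked a T (2.90%, interval 2.42 to 3.47%). This deletion coincided with the first base of TATAAA, which belongs to a match to the AUA motif that does not contain AATAAA. The end of PLAUR-202 has AATAAA starting 20 nt before it but had no site within 100 nt. Both last exons of PLAUR thus had sites, and the distal one was covered by fewer tags than any proximal site.

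SERPINE2, the gene of protease nexin-1 (ENSG00000135919.14, chromosome 2, 223975045 to 224039318, minus strand), had 6 sites in its 3′UTR, in a single group 18 to 62 nt upstream of the end of SERPINE2-203. Whereas the strongest sites of PLAU, PLAUR and PLAT were 8 to 12 nt from an end, that of SERPINE2 was 48 nt from it, with 339 of 12871 tags and a deleted T (2.63%, interval 2.37 to 2.92%). On its sides were sites with 218 of 10761 tags (2.03%, interval 1.78 to 2.31%) at 56 nt and with 207 of 15475 tags (1.34%, interval 1.17 to 1.53%) at 41 nt. These 3 intervals did not overlap, so the percentage fell on both sides of the peak.

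The other 3 sites of SERPINE2 had 47 of 8477 tags (0.554%) at 62 nt, 65 of 23692 tags (0.274%) at 27 nt and 80 of 23305 tags (0.343%) at 18 nt. The lowest percentages were thus next to the end, where the tags were most numerous. The 4 sites from 18 to 48 nt had AATAAA in their windows, and the 2 farther ones did not. AATAAA starts 28 nt before the end of SERPINE2-203 and again 5 nt before it.

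The canonical SERPINE2 transcript ends farther downstream and has its own AATAAA, 38 nt before the end. No site lay within 100 nt of that end, and the 6 sites were 126 to 170 nt upstream of it. SERPINE2 and PLAT were the members in which the canonical end was without sites and a shorter annotated end had them. Counted against the canonical end alone, 24 of the 40 sites were within 100 nt. The seventh site of SERPINE2, at position 223981806, was intronic in the canonical transcript, with 23 of 34 tags (67.6%) and ATTAAA in its window.

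SERPINB8, which encodes an intracellular serpin known to inhibit the protease furin (ENSG00000166401.15, chromosome 18, 63970029 to 64019779, plus strand), had 2 sites. The stronger was at position 63989351, 20 nt upstream of the nearest end, and 191 of 4756 tags lacked a T (4.02%, interval 3.49 to 4.61%). In the other, 12 nt upstream of it, 76 of 4680 tags lacked an A (1.62%, interval 1.30 to 2.03%), and the intervals did not overlap. Its sites were covered by fewer tags than the groups at the ends of PLAUR, PLAT and SERPINE2.

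Both SERPINB8 sites were at the end shared, within 3 nt, by SERPINB8-202, SERPINB8-208 and the canonical SERPINB8-203. The gene has 6 annotated ends, and each has AATAAA or ATTAAA in its last 50 nt. Sites were found at 2 of them, which are those 3 nt apart. Besides AATAAA, both windows held AUA matches downstream of the deletions that do not contain the signal.

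SERPINB6, which encodes an intracellular inhibitor of cathepsin G (ENSG00000124570.21, chromosome 6, 2948159 to 2972165, minus strand), had no site in any part of the gene. Its canonical 3′UTR is 139 nt long and has AATAAA, starting 32 nt before the end and within a match to the AUA motif. Of its 12 annotated ends, 8 have AATAAA in the last 50 nt. AATAAA near an end was thus present in SERPINB6, without sites, and PLAUR had 9 sites at an end without AATAAA. The part of the signal in which genes had sites was not tested. Over all genes, AATAAA was in the last 50 nt of 63.7% of 19952 canonical coding transcripts. A 3′UTR site was found in 34.4% of the genes with it and in 27.5% of those without it. The list does not hold tag counts for positions without a site, so a lack of binding and a lack of SERPINB6 mRNA cannot be told apart.

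Across the 5 genes, the sites with the most deletions were ordered by percentage as SERPINB8 (4.02%), PLAUR (3.99%), PLAU (3.15%), SERPINE2 (2.63%) and PLAT (1.53%). The first 2 overlapped in their intervals. PLAU had a higher percentage than any of these, 9.19%, at its site 85 nt from the end, which had fewer deletions than its strongest site. By deletions the order was PLAUR (1529), PLAU (883), PLAT (589), SERPINE2 (339) and SERPINB8 (191). The orders differ because the strongest SERPINB8 site was covered by 4756 tags and that of PLAT by 38423. The sites with the most deletions of all 5 genes were in runs of 4 or 5 T. Run lengths were not counted over the list, so no share of the list stands beside this count. Deletions within a run are listed at the same coordinate, and these sites were picked for having the most deletions. The part of that choice in the runs was not tested.

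Over the 40 3′UTR sites, T was the deleted base at 26, A at 9, C at 3 and G at 2. T made up 65.5% of deleted bases over all 3′UTR sites, close to the 65.0% of the members. PLAU stood at 7 deleted T of 15, and SERPINE2 at 5 of 6. The median percentage was 1.13% at the 26 sites with a deleted T and 0.452% at the 9 with a deleted A. The order was the same over the 3′UTR sites of the list under 30%, with medians of 2.18% at T and 0.862% at A. The member medians were taken without that limit, and for both bases the highest member value was 100%.

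A stretch of 51 nt centred on each deletion was searched on the transcript strand. It was read from the genome and so can run past the end of the transcript. AATAAA was in the windows of 20 of 40 member sites, against 52.7% of all 3′UTR sites. The AUA motif has the form NNATANA, with any base but C in the first place and a weakly pairing base (adenine or thymine) in the second and sixth. It was also in 20 of 40 windows, against 51.7%. An AUA match without AATAAA was in only 3 windows, against 15.5% in the list. These were both sites of SERPINB8 and the distal PLAUR site. Neighbouring sites share most of their window, so these counts rest on few separate stretches.

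ATTTA, the core of AU-rich elements that govern the decay of many short-lived mRNAs, was in 18 of 40 windows, against 21.5% of all 3′UTR windows. The windows belonged to 10 sites of PLAU, 6 of PLAUR and both of SERPINB8, whereas PLAT and SERPINE2 had none. Windows of neighbouring sites overlap, and the canonical 3′UTR holds only 2 copies of ATTTA in PLAU and 1 in PLAUR. The 18 windows are thus not separate stretches. Of the sites with the most deletions in each gene, only that of SERPINB8 had ATTTA in its window. ATTTA was also added after the values had been seen, and a match is not evidence that it is used.

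The other genes of the system were taken from a list of 37, of which 13 had a site in the 3′UTR, against 31.8% of 20046 protein-coding genes. No difference between roles was tested. Of 5 genes for plasminogen and its receptors, 3 had sites. They were S100A10 and ANXA2, which form a cell-surface receptor complex for plasminogen, and the glycolytic enzyme ENO1, which also binds it. S100A10 had the most deletions of them, 877 of 21188 tags (4.14%, interval 3.88 to 4.42%), 6 nt from an end. ENO1 had 320 of 14278 tags (2.24%) and ANXA2 254 of 5372 tags (4.73%) at their strongest sites. PLG and PLGRKT had none.

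Of 6 further inhibitors, SERPINB2 and SERPINI1 had sites. SERPINB2, which encodes PAI-2, had 1 site with 47 of 819 tags (5.74%, interval 4.34 to 7.55%). SERPINI1, or neuroserpin, had 1 with 45 of 1089 tags (4.13%). SERPINA5, SERPINF2, A2M and CPB2 had none.

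Among 8 partners and clearance receptors of uPAR, ITGB1 (13 sites), ITGAV (10), ITGB5 (3), LRP1 (1) and MRC2 (1) had sites. The integrin subunits ITGB1 and ITGAV had 197 of 16832 tags (1.17%) and 131 of 24476 tags (0.535%) at their strongest sites, and ITGB5 had 179 of 4590 tags. LRP1, the endocytic receptor for complexes of protease and inhibitor, had 45 of 8562 tags (0.526%). MRC2, a collagen receptor that associates with uPAR, had 39 of 220 tags (17.7%, interval 13.2 to 23.3%). Of 8 proteases that act up- or downstream, only the membrane-type metalloprotease MMP14 had sites, 9 in all, with 336 of 12659 tags at the strongest (2.65%).

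Of 10 other clade B serpins, SERPINB1 and SERPINB9 had sites. Of these 10 serpins, they are the ones that lie with SERPINB6 on chromosome 6. SERPINB9, an inhibitor of granzyme B, had 5 sites, of which the strongest had 244 of 6214 tags (3.93%) and was 1206 nt from an end. SERPINB1, an inhibitor of neutrophil elastase, had 3 sites, with 80 of 3949 tags (2.03%) at the strongest. The 8 clade B serpins on chromosome 18 that were counted here had none, although SERPINB8 and the inhibitor SERPINB2 on the same chromosome did.

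**Figure D3:**
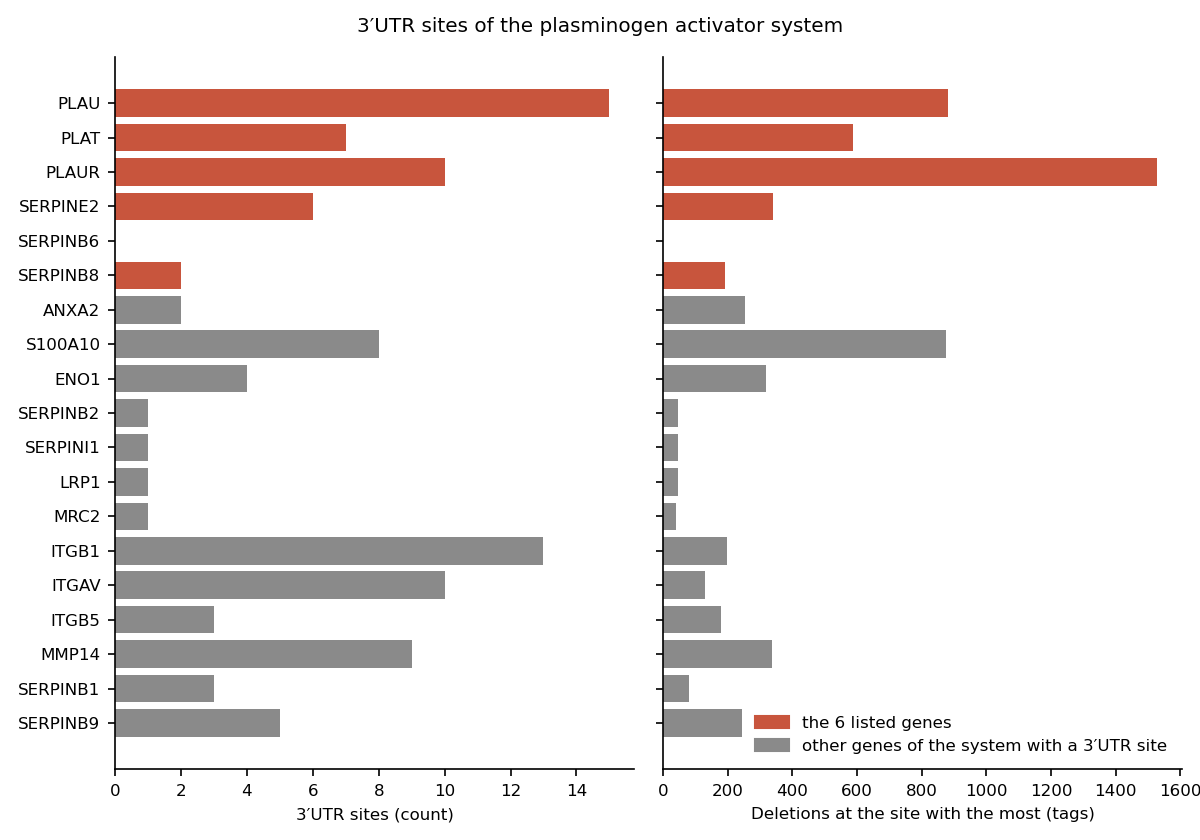
Number of 3′UTR sites (left) and deletions at the site with the most (right, in tags) for the 6 genes of the group (red) and the 13 other genes of the system counted here that had a 3′UTR site (grey). SERPINB6 has no bar because it had no site. Of the genes plotted, PLAU has the most sites (15) and PLAUR the most deletions at a single site (1529).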

How the data were processed

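The authors appended molecular identifiers to the reads, ran the CLIP Tool Kit with alignment to hg38, pooled the unique tags of both replicates and kept deletion sites by a false discovery rate and a fold. Tool versions are not given in the sources used here. The deposited values are counts, not normalized: tags that cover each site and tags with the deletion. Both were read from the site names, and the deletions also fill the score column. Read depth per library was not analysed here. Each 21-nt interval was reduced to its central base and placed on GENCODE release 44, strand included. A position in several features counted first as 3′UTR, then as 5′UTR, exon or intron. Ends of transcripts marked as incomplete were left out. Sites within 50 nt formed a cluster. Pooled values allow no test between samples, so members are described beside the whole list. The members and gene lists were chosen with earlier results of these data known. All 6 members and each other gene with a 3′UTR site are named, except that 1 gene of the list of other genes is not reported here. Placement was tested on simulated data, with 1200 of 1200 sites recovered over 300 genes. Alternatives covered deletions, percentages, annotation, windows, motifs and clusters. Python 3.11.15, numpy 2.4.6, scipy 1.17.1 and matplotlib 3.10.9 were used.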

Additional observations from a re-analysis of the deposited data

How the results depend on the processing

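Of 36 alternative values, 25 stayed within 1.5 times the count or inside the quartiles, and 11 did not. The 41 sites became 4 with deletions in at least 10% of tags, 10 clusters within 50 nt and 15 within 10 nt. With 1 site, that with the most deletions, for each of the 9 clusters in 3′UTRs, 5 sites were within 100 nt of an end, 4 windows held AATAAA, 4 held the AUA motif and 7 sites had a deleted T. The median percentage was then 3.99%, and 3 of these 9 sites rest on 32 tags or fewer. The list was counted by cluster after seeing the data. With 10 nt on each side, 10 windows held AATAAA and 8 the AUA motif. AUA matches without AATAAA were in 3. Ends of complete coding transcripts alone, chosen after seeing the data, left 36 sites near an end. The place of a deletion in a run cannot change its base.

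No paired analysis was possible because the list pools both replicates of 1 group, so no replicate could be left out. Depth limits what could be listed: at sites with at least 1000 tags the lowest number of deletions was 37, so weaker deletions in well-covered members were not visible, and 4 member sites rest on 7 to 34 tags.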

Other observations

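A site outside the annotated genes lay 220 nt past the end of PLAUR on the same strand, at chromosome 19, position 43645875. There 78 of 5259 tags carried the deletion (1.48%, 95% Wilson interval 1.19 to 1.85%). It does not count among the 41 sites, and with 1000 nt downstream of each gene included it was the only site added, for 42 in all.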
